A study of Oryza sativa with 6 samples.

Results

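Aquaporins are membrane channels that let water and some small solutes cross a membrane. In plants they fall into subfamilies named after their place or relatives: the plasma membrane intrinsic proteins (PIP), the tonoplast intrinsic proteins (TIP) of the vacuole membrane, the NOD26-like intrinsic proteins (NIP), several of which carry silicic or boric acid, and the small basic intrinsic proteins (SIP). PIP and TIP channels are the main routes for water into the cell and into its vacuole, and in leaves they are known for their part in water transport out of the veins and in cell turgor. The aquaporin genes described here are those whose Swiss-Prot annotation in the deposited table names an aquaporin. There were 10 such genes among the 2995 genes of the table, of which 5 were PIP, 4 were TIP, 1 was NIP and 0 were SIP. No further gene of the table carried an aquaporin name in another annotation column (0 genes).

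Leaf RNA was sequenced from 3 samples of WYG7 (the *japonica* rice cultivar Wuyungeng 7, the wild type) and 3 samples of PIF4v3m, the line that the paper names *PIL13*v3m, in which CRISPR/Cas9 removed a single nucleotide at the v3 SNP of the *OsPIL13* promoter in the WYG7 background. *OsPIL13* encodes a phytochrome-interacting bHLH factor. That PIF4v3m is the paper's line is inferred from its name, as the labels do not say so. Plants of both lines were kept in pots under fluctuating light together with drought (FL-DS), with no unstressed group in the series, so the effect of the stress itself cannot be read from these data. The labels give an age of 3 weeks, whereas the growth chamber methods start FL-DS at a later age. PIF4v3m is a single edited line, no collection time is recorded for either line, and no label says whether the samples came from separate plants, so p-values measure only the spread between these samples, and collection time and the edit cannot be told apart.

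Each value is an FPKM (fragments per kilobase of transcript scaled to the mapped fragments of the library), made by the authors for each gene and library. FPKM is scaled by transcript length, so levels of different genes can be set side by side. The deposited table is a list of genes that the authors had already called as different between the lines: in the authors' own comparison columns, all 2995 genes lie under an FDR of 0.01 and all 2995 reach a log2 fold change of at least 1 in size. Every aquaporin below was therefore listed because it differed, and its test is a description of size and spread and not independent evidence of a change. In the RefSeq gene table of the japonica genome, 29 genes carry a PIP, TIP, NIP or SIP number as a synonym or symbol, namely 11 PIP, 9 TIP, 7 NIP and 2 SIP genes. Of these, 9 were in the deposited table (5 PIP, 3 TIP, 1 NIP and 0 SIP), and TIP4-3, which has no such synonym there, was the other listed member. The aquaporins that are not listed were not analysed here, and nothing is known from this table about their levels. The paper counts more genes as different, at an adjusted p under 0.05. An aquaporin missing here may therefore still be among those the authors called.

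Of the 10 aquaporins, 8 were lower and 2 were higher in PIF4v3m than in WYG7 (limma on log2(FPKM + 1), two-sided, Benjamini-Hochberg adjusted p under 0.05 over all 2995 listed genes). By the same test 99.9% of all listed genes were called, 45.8% as higher and 54.1% as lower, so the number called says nothing about aquaporins in particular. All 5 PIP genes, both TIP1 genes and the NIP gene were lower, and both TIP4 genes were higher. The median difference of the 10 genes was -1.41 on the log2(FPKM + 1) scale, against -0.56 over all listed genes. The median absolute difference was 1.60, against 1.10 over all listed genes. All listed genes were chosen for their size of change, and the added 1 FPKM shrinks differences of low genes most. Of the 10 aquaporins, 7 lay above the median mean FPKM of the table (3.80). These medians therefore do not show that aquaporins changed more than other listed genes, and they were not tested. The WYG7 and PIF4v3m values did not overlap for any of the 10 genes, which was also so for 99.4% of the listed genes. Such a separation has p = 0.1 in an exact two-sided permutation test, which is the limit of 3 samples against 3. In bulk leaf RNA, fewer cells of a type and less RNA per cell cannot be told apart.

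**Figure D1:**
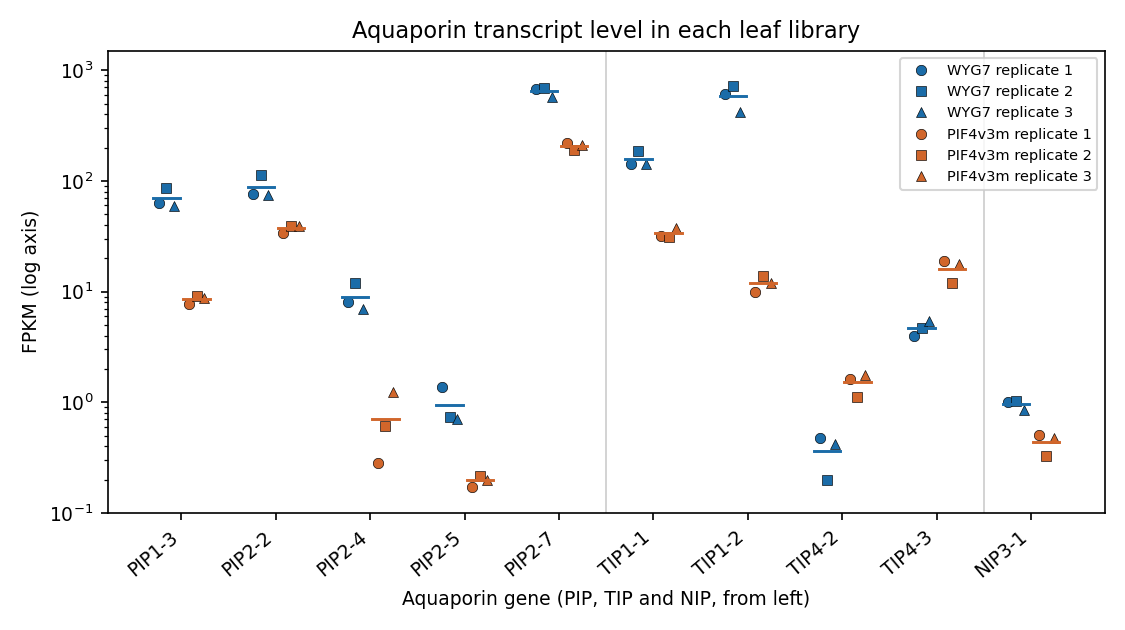
FPKM on a log axis of each of the 10 listed aquaporins in the 3 WYG7 and the 3 PIF4v3m libraries, with a point per library and a bar at the mean of each line. The 2 lines do not overlap for any of the 10 genes, and PIF4v3m lies above WYG7 only for TIP4-2 and TIP4-3.

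The largest decrease was that of TIP1-2 (LOC4324303), a channel of the vacuole membrane. It had 605, 716 and 423 FPKM in WYG7 replicates 1, 2 and 3, and 9.98, 13.8 and 12.1 FPKM in the PIF4v3m replicates. The lowest WYG7 library was thus 30.8 times the highest PIF4v3m library. The mean fell from 581 ± 148 to 11.9 ± 1.89 FPKM (SD, n = 3), a 48.7-fold difference of the means and a log2 difference of -5.47 (standard error 0.20, limma adjusted p = 4.04e-07). In WYG7 the gene ranked 18th of the listed genes by mean FPKM, and in PIF4v3m it ranked 739th.

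TIP1-1 (LOC4331608), its close relative in the same membrane, had 143, 188 and 143 FPKM in WYG7 and 31.8, 31.4 and 37.8 FPKM in PIF4v3m. All 3 PIF4v3m libraries were low and close to each other, and the means differed 4.69-fold (158 ± 25.8 against 33.7 ± 3.55 FPKM, log2 difference -2.19, standard error 0.13). The ratio of TIP1-2 to TIP1-1 within a library does not change when all values of that library are multiplied by the same factor. This ratio was 4.23, 3.82 and 2.97 in WYG7 and 0.314, 0.438 and 0.319 in PIF4v3m. TIP1-2 was therefore the more abundant of the pair in every WYG7 library and the less abundant in every PIF4v3m library (p = 0.1, exact two-sided permutation test, the smallest possible).

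The TIP4 genes went the other way. TIP4-3 (LOC4324276) had 4.0, 4.65 and 5.40 FPKM in WYG7 and 18.9, 11.8 and 17.6 FPKM in PIF4v3m, so that its lowest PIF4v3m library was 2.19 times its highest WYG7 library. Its mean rose 3.44-fold, from 4.68 ± 0.702 to 16.1 ± 3.77 FPKM (log2 difference 1.57, standard error 0.18, limma adjusted p = 6.33e-05). TIP4-2 (LOC4324277) was near the bottom of the range, with 0.472, 0.198 and 0.416 FPKM in WYG7 and 1.63, 1.12 and 1.77 FPKM in PIF4v3m. The means were 4.16-fold apart (0.362 ± 0.145 and 1.51 ± 0.340 FPKM). The log2 difference of TIP4-2 was 0.88 (standard error 0.14) with the pseudocount of 1 and 1.83 with 0.1. TIP4-3 and TIP4-2 are direct neighbours in the RefSeq gene order, with 0 genes between them. Their ratio did not separate the lines, being 8.48, 23.5 and 13.0 in WYG7 and 11.6, 10.5 and 9.96 in PIF4v3m (p = 0.6, exact two-sided permutation test). In WYG7 these ratios rest on TIP4-2 values of 0.198 to 0.472 FPKM. With 3 libraries against 3, they cannot show that the neighbours moved together.

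**Figure D2:**
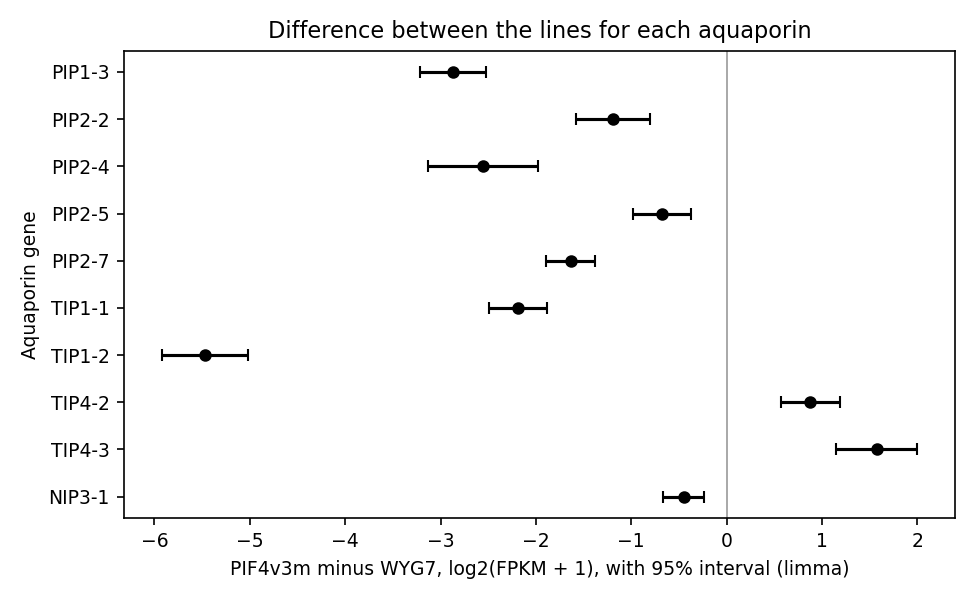
Difference between the lines for each aquaporin on the log2(FPKM + 1) scale, PIF4v3m minus WYG7, with the 95% interval of limma as the bar. TIP1-2 lies at -5.47, far left of the other 9 genes, and only TIP4-2 (0.88) and TIP4-3 (1.57) lie right of 0.

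Among the plasma membrane channels, PIP2-7 (LOC4347729) was the most abundant in both lines. It had 682, 694 and 573 FPKM in WYG7 and 221, 192 and 211 FPKM in PIF4v3m. The groups stayed well apart, with a 3.12-fold difference of the means (649 ± 66.4 against 208 ± 14.8 FPKM, log2 difference -1.64, standard error 0.11, limma adjusted p = 5.18e-06). It ranked 13th of the listed genes by mean FPKM in WYG7 and 41st in PIF4v3m.

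PIP1-3 (LOC4331194), also known as the rice water channel RWC3, belongs to the PIP1 group, whose members commonly assemble with PIP2 channels. It had 62.6, 86.7 and 59.9 FPKM in WYG7 and 7.75, 9.11 and 8.83 FPKM in PIF4v3m. This 8.14-fold difference (log2 difference -2.87, standard error 0.15, limma adjusted p = 1.63e-06) was the largest among the PIP genes on the log2(FPKM + 1) scale. PIP2-2 (LOC4330049) had 76.9, 114 and 74.2 FPKM in WYG7 and 33.7, 39.3 and 39.4 FPKM in PIF4v3m, a 2.36-fold difference, with WYG7 replicate 2 well above the other WYG7 libraries. PIP2-2 and PIP1-3, which were close in WYG7 (88.4 ± 22.2 and 69.7 ± 14.8 FPKM, with overlapping values), were far apart in PIF4v3m (37.5 ± 3.27 and 8.56 ± 0.721 FPKM).

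PIP2-4 (LOC4343119) and PIP2-5 (LOC4343121) lie near each other in the RefSeq gene order, with 1 gene between them, and PIP2-5 is followed directly by PIP2-1, which is not listed. PIP2-4 had 8.02, 12.0 and 6.97 FPKM in WYG7 and 0.281, 0.609 and 1.24 FPKM in PIF4v3m. Its PIF4v3m libraries varied most of all members (coefficient of variation 68.7%), yet each lay below every WYG7 library, and the means were 12.7-fold apart. With a pseudocount of 0.01 its log2 difference was -3.85, against -2.55 with 1. PIP2-5 had 1.38, 0.732 and 0.712 FPKM in WYG7 and 0.171, 0.217 and 0.200 FPKM in PIF4v3m. At this level the offset of 1 FPKM compresses the change, so that the log2 difference was -0.68 (standard error 0.13) with a pseudocount of 1 and -1.76 with 0.1, while the means were 4.79-fold apart. The genes of these tandem groups are similar in sequence, and how reads shared between near copies were counted is not given in the sources used here, so the split between neighbours is uncertain.

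NIP3-1 (LOC4349102), which in rice transports boric acid and carries the symbol DTE1 in the RefSeq table, was the only listed NIP gene. It had 1.00, 1.03 and 0.855 FPKM in WYG7 and 0.502, 0.326 and 0.478 FPKM in PIF4v3m. The groups did not overlap, but the difference was the smallest of the 10 on both scales, at 2.21-fold between the means and a log2 difference of -0.45 (standard error 0.09, limma adjusted p = 0.00147). With a pseudocount of 0.01 the log2 difference was -1.15. Its call was lost after quantile normalization (limma adjusted p = 0.0722) and after centring of each library on its median (limma adjusted p = 0.182).

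The order of the aquaporins by level differed between the lines. In WYG7 the order of mean FPKM was PIP2-7, TIP1-2, TIP1-1, PIP2-2, PIP1-3, PIP2-4, TIP4-3, NIP3-1, PIP2-5 and TIP4-2. Neighbours whose libraries overlapped there were PIP2-7 with TIP1-2, PIP2-2 with PIP1-3, and NIP3-1 with PIP2-5. In PIF4v3m the order was PIP2-7, PIP2-2, TIP1-1, TIP4-3, TIP1-2, PIP1-3, TIP4-2, PIP2-4, NIP3-1 and PIP2-5, and the overlapping neighbours were PIP2-2 with TIP1-1, TIP4-3 with TIP1-2, TIP4-2 with PIP2-4, and PIP2-4 with NIP3-1. TIP4-3 was thus at the level of TIP1-2 in PIF4v3m, with ranges of 11.8 to 18.9 and 9.98 to 13.8 FPKM, whereas in WYG7 TIP1-2 stood above TIP4-3 in every library.

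Summed over the 10 genes, aquaporin FPKM was 1584, 1817 and 1287 in WYG7 and 326, 299 and 331 in PIF4v3m. This is a 4.91-fold difference of the means (1563 ± 265 against 319 ± 16.7 FPKM, SD, n = 3). The TIP sum fell 11.8-fold, from 744 ± 169 to 63.2 ± 5.59 FPKM, and the PIP sum 3.21-fold, from 817 ± 96.7 to 255 ± 12.0 FPKM. Consequently the TIP genes made up 47.3% ± 2.81 of the summed FPKM in WYG7 and 19.8% ± 0.963 in PIF4v3m. TIP1-2 alone made up 38.2%, 39.4% and 32.9% in the WYG7 libraries and 3.07%, 4.59% and 3.65% in the PIF4v3m libraries. The share of PIP2-7 went from 41.9% ± 3.32 to 65.2% ± 2.23, although its own level was lower. The share of TIP1-1 was 10.1% ± 1.03 in WYG7 and 10.6% ± 0.824 in PIF4v3m, with overlapping values. These sums hold the listed genes only and were not tested.

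**Figure D3:**
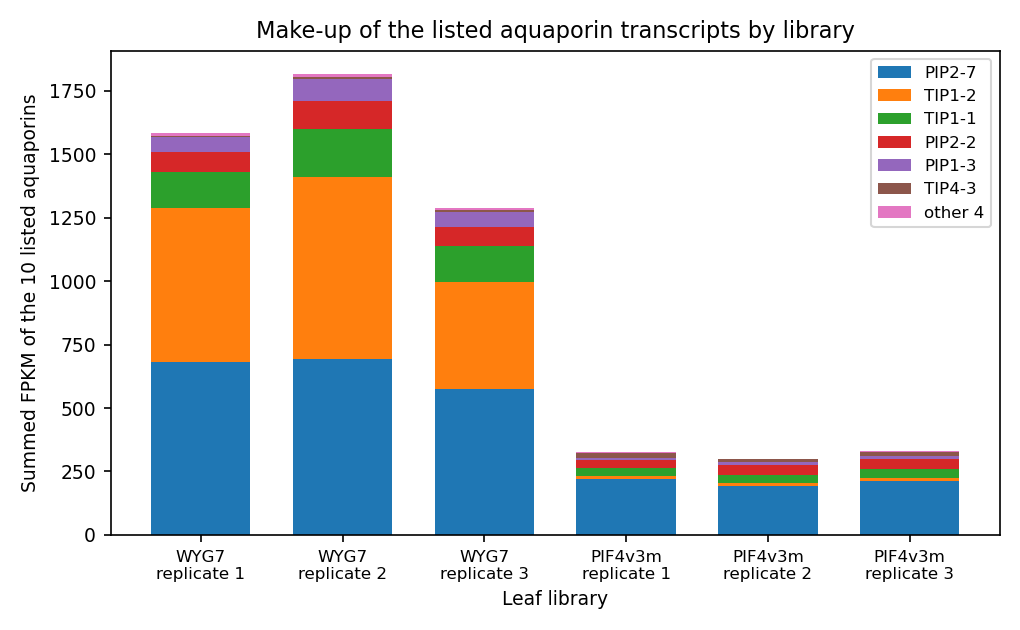
Summed FPKM of the 10 listed aquaporins in each library, stacked by gene. WYG7 libraries reach 1287 to 1817 FPKM, most of it PIP2-7 and TIP1-2, and PIF4v3m libraries reach 299 to 331 FPKM, most of it PIP2-7.

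Libraries of one line also differed from each other. Among the WYG7 libraries, replicate 2 had the highest FPKM for 7 of the 8 lower aquaporins (PIP2-5 was the exception, with its highest value in replicate 1), whereas it was the highest for 24.9% of all listed genes that were lower. Replicate 3 had the lowest WYG7 value for 8 of the 8, against 36.6% of all listed lower genes. Some of these were near ties, such as TIP1-1 (142.6 FPKM, against 143.2 in replicate 1) and PIP2-5 (0.712 FPKM, against 0.732 in replicate 2). The median deviation of the 10 aquaporins from the WYG7 mean was 0.18 in replicate 2 and -0.17 in replicate 3 on the log2(FPKM + 1) scale, when the median over all listed genes was -0.03 in both. The 10 genes share the same libraries, so these counts are a description. Coefficients of variation ran from 9.75% (NIP3-1) to 40.2% (PIP2-5) in WYG7 and from 7.12% (PIP2-7) to 68.7% (PIP2-4) in PIF4v3m.

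**Figure D4:**
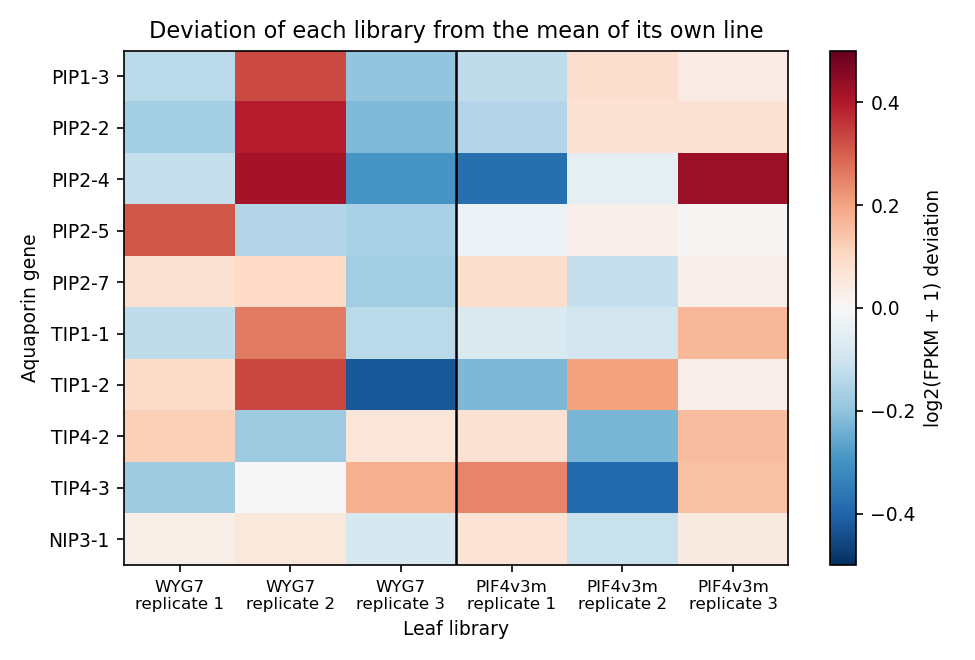
Deviation of each library from the mean of its own line on the log2(FPKM + 1) scale, for each aquaporin (rows) and library (columns), with red above and blue below the mean. WYG7 replicate 2 is above the mean for 7 of the 8 genes that were lower in PIF4v3m, and WYG7 replicate 3 is below it for all 8 of them.

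Other listed genes of the vacuole membrane, of osmotic ions and of growth were counted in the same way. The background for each count is the split of all listed genes, of which 45.8% were higher and 54.1% lower (median log2 difference -0.56), and no list was tested against it. Of 7 listed tonoplast pumps and transporters, 6 were higher and 1 was lower in PIF4v3m (median log2 difference 1.41). The 6 include the vacuolar proton pyrophosphatase LOC4331044, with 0.0139, 0 and 0 FPKM in WYG7 and a mean of 0.448 FPKM in PIF4v3m, and the vacuolar iron transporter homolog LOC4336526, with means of 0.0883 and 0.846 FPKM, both near the bottom of the range. The vacuolar cation/proton exchanger 1a (LOC4324573), which moves calcium into the vacuole, rose from 41.8 ± 7.53 to 168 ± 10.7 FPKM. The vacuolar potassium channel TPKa (LOC4334137) rose from 5.22 ± 0.603 to 23.5 ± 2.00 FPKM, and subunit G 1 of the vacuolar proton ATPase (LOC4330438) from 5.51 ± 0.466 to 16.3 ± 1.65 FPKM. The gene that was lower is annotated as cation/calcium exchanger 1 (LOC4344217) and fell from 51.3 ± 9.92 to 0.250 ± 0.0689 FPKM. No sodium/hydrogen exchanger was matched by name, although the paper reports the vacuolar antiporter *OsNHX1* as lower in *PIL13*v3m. The counts of this list therefore leave that gene out.

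Of 9 listed potassium transporters and channels, TPKa included, 6 were higher and 3 were lower, against 45.8% higher and 54.1% lower among all listed genes (median log2 difference 0.88). Potassium transporter 8 (LOC9271735) rose from 3.06 ± 0.447 to 31.1 ± 2.04 FPKM, and potassium transporter 17 (LOC4347211) fell from 20.6 ± 3.64 to 2.13 ± 0.414 FPKM. Both listed boron transporters were higher, boron transporter 4 (LOC107275818) from 29.8 ± 3.96 to 63.6 ± 11.2 FPKM and boron transporter 1 (LOC4352546) from 0.978 ± 0.0954 to 3.41 ± 0.476 FPKM, when the boric acid channel NIP3-1 was lower. Only 2 late embryogenesis abundant proteins were listed, and both were higher, as were 45.8% of all listed genes. Of 4 listed genes with an expansin name (expansin-B9 and expansin-like A1, A4 and B1), 1 was higher and 3 were lower (median log2 difference -0.99). Their sum was nevertheless higher, at 19.9 to 21.8 FPKM in WYG7 and 34.2 to 43.6 FPKM in PIF4v3m. The higher gene, expansin-like A1 (LOC4331516), rose from 13.3 ± 1.93 to 37.9 ± 5.12 FPKM. No plasma membrane proton pump was listed (0 genes). As the table holds called genes only, these counts cover listed genes and not whole families.

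Leaf markers were abundant in both lines as a sum, but the listed genes split by type. The chlorophyll a-b binding genes all fell. LOC4346803 went from 5380 ± 443 to 791 ± 130 FPKM and LOC4343583 (CP29.1) from 3409 ± 140 to 1027 ± 169 FPKM. LOC4324599 went from 2811 ± 281 to 408 ± 163 FPKM. The photosystem II 10 kDa polypeptide (LOC4342395) fell from 109 ± 13.6 to 1.24 ± 0.316 FPKM. The photosystem II 22 kDa protein 2 (LOC4337500) fell from 103 ± 33.3 to 14.4 ± 0.981 FPKM. Subunit V of photosystem I (LOC4347395) rose from 289 ± 36.4 to 719 ± 81.1 FPKM. Its subunit N (LOC4351694) rose from 335 ± 45.1 to 678 ± 37.1 FPKM and psaK (LOC4342404) from 721 ± 40.8 to 1539 ± 216 FPKM. The Rubisco small chain A (LOC4352016) rose from 1104 ± 229 to 2850 ± 415 FPKM. The 9 listed mesophyll genes (light-harvesting, photosystem and Rubisco small chain genes) summed to 13798 to 14587 FPKM in WYG7 and 6756 to 9034 FPKM in PIF4v3m, with 4 higher and 5 lower and none at 0. The list chosen for root markers held 7 genes, namely Casparian strip membrane protein 2 (LOC107276110) and otherwise proteins annotated only as CASP-like. Of the 7, 6 were higher and 1 was lower (45.8% and 54.1% among all listed genes). Their sum was 25.3 to 31.0 FPKM in WYG7 and 53.0 to 58.7 FPKM in PIF4v3m. Whether the CASP-like genes are particular to the root was not tested, so this sum is not a measure of root tissue. The guard cell names searched for (SLAC anion and KAT potassium channels) and the phloem name (SUT sucrose transporters) were not listed (0 genes each). Neither were the silicon transporters of the root. Other markers of guard cells and phloem were not looked for. The part that the make-up of the leaf samples has in the aquaporin values was not tested.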

How the data were processed

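The authors deposited FPKM per gene and library. The paper's methods give STAR and Cufflinks for quantification. The notes of the submitters list StringTie 1.3.0, HISAT2 2.0 and Bowtie 0.12.2 with mm8, a mouse build, so it is open which tool produced these values and on which rice build. Besides these, the deposited table has an adjusted p-value (FDR) and a log2 fold change of the authors' own comparison, which were read only to learn how genes were chosen. All per-library columns were used (0 left out). The paper's supplement lists reads per library, which were not used here. Ratios of low FPKM between libraries took no fixed steps, so the reads behind single FPKM values were not recovered.

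Here log2(FPKM + 1) was compared by limma 3.58.1 (R 4.3.3), without covariates and with a mean-variance trend, over all 2995 genes, all of which had a mean FPKM above 0.01, as did all 10 aquaporins. Fold differences are ratios of mean FPKM. Differences on the log2(FPKM + 1) scale understate the change of low genes. The fit was tested on simulated data with 200 changed genes and all others unchanged. In the listed genes 99.9% were called, so that simulation does not bear on the calls reported here. Members, lists and tests were chosen with earlier results of these data known, and all aquaporins of the table are named. From each list, up to 3 genes per direction were named by smallest p, except that all listed mesophyll genes were named. The tonoplast genes LOC4331044 and LOC4336526 were named besides, for their low values. Of the gene IDs with a LOC number, 2761 of 2800 matched the RefSeq table of ASM3414082v1, the 10 aquaporins among them, and that table was used for names and gene order only. Alternatives were other pseudocounts (0.1 and 0.01), filters, scalings and variance models, the replicate number as a block, and each library left out in turn. A planned comparison of protein and promoter sequences was not run. Tables were handled with pandas 2.3.3 in Python 3.11.15 and figures drawn with matplotlib 3.10.9.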

Additional observations from a re-analysis of the deposited data

How the results depend on the processing

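Under 16 alternatives, 8 aquaporins were called lower and 2 higher, except that 7 were lower after quantile normalization and after median centring, where NIP3-1 was no longer called (log2 differences -0.21 and -0.16), and 6 with a mean of at least 1 FPKM required in one line, a filter that left 8 aquaporins to test. Of 158 values of single genes, 156 kept direction and call, an outcome nearly set by the way the table was made, as the genes were listed for differing. With single libraries left out, the log2 difference of TIP1-2 ran from -5.68 to -5.30 and that of PIP2-7 from -1.72 to -1.58. Quantile normalization moved the median of all log2 differences by 0.23 and median centring by 0.29. In PIF4v3m the summed FPKM after median centring was 354 (all), 283 (PIP), 70.4 (TIP) and 0.589 (NIP), after TPM rescaling 336 (all) and 269 (PIP), and after quantile normalization 0.558 (NIP). In WYG7 the NIP value was 0.794 after quantile normalization and 0.774 after median centring. These scalings used the listed genes only. The replicate block left 8 aquaporins lower and 2 higher and 1372 listed genes higher and 1618 lower. Between libraries of the same number, deviations from the line means had correlations of -0.07, 0.003 and -0.10, so the numbers gave no sign of pairing the libraries. Reads per gene were not recovered from the FPKM, so no counting error is given for PIP2-5, TIP4-2 and NIP3-1, which had about 1 FPKM or less in WYG7. The same holds for PIP2-4, whose fold difference rests on 0.281 to 1.24 FPKM in PIF4v3m.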

Other observations

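By distance of log2(FPKM + 1) over the 6 libraries, the listed gene with values most like those of PIP2-7, the aquaporin with the highest mean FPKM, was the 9-cis-epoxycarotenoid dioxygenase NCED1 (LOC4330451), an enzyme of abscisic acid synthesis. NCED1 had 665, 712 and 547 FPKM in WYG7 and 213, 183 and 210 FPKM in PIF4v3m, and the distance to PIP2-7 was 0.118 (Euclidean, log2). Its highest and lowest libraries within WYG7 were replicates 2 and 3, as for PIP2-7. As NCED1 was picked by distance over these same libraries, this order is no separate likeness. The next in order were the GTP-binding protein Ran-2 (LOC4339683, distance 0.692), cysteine proteinase inhibitor 1 (LOC4327535, distance 0.706), the ubiquitin-NEDD8-like protein RUB1 (LOC4347085, distance 0.835) and LOC4324425 (distance 1.02), which has no Swiss-Prot name in the table. This distance measures likeness of level as well as of pattern, over 6 libraries that all genes share, and no test was made of it.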
